A study of Mus musculus with 2 samples.

Results

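Snurf, Snrpn, Ndn, Peg3, Plagl1, Nnat, Impact, Grb10 and Dlk1 are 9 imprinted protein-coding genes of the mouse, taken by name from a fixed list, out of 55536 annotated genes and 22028 annotated protein-coding genes. All 9 symbols were matched by gene identifier in every table. Their RNA was read in the left cerebral cortex of 2 adult male mice, biological replicates 1 and 2 of a single group, which the labels give as strain 5xFAD/CAST, aged 8 to 10 months and supplied by The Jackson Laboratory. 5xFAD mice are a transgenic model of Alzheimer disease, with transgenes driven by the promoter of the neuronal gene Thy1. The labels name the cross with CAST without saying which strain was the mother, do not give the transgene status of each animal, and give the samples separate biosample labels with 1 shared donor label. That donor label was taken here as standing for the strain, and every SD and ratio below rests on reading the libraries as separate animals. Each library was made with a directional kit from 300 ng of total RNA depleted of ribosomal RNA. No mice without the transgenes and no other tissue were analysed here, so the values below are levels in a single group, with the spread between its 2 animals, and no p-value was computed.

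Imprinted genes are transcribed mainly from the allele of 1 parent. The parental alleles are told apart by DNA methylation laid down in the egg or the sperm and kept through development. Apart from Grb10, these genes are known to be expressed in brain from the paternal allele. For Grb10, neurons use the paternal allele and most other tissues the maternal one, and bulk cortex holds neurons and other cells. Several imprinted genes lie in shared domains, among them the Snrpn domain, whose loss on the paternal chromosome underlies Prader-Willi syndrome in humans, and the domain of Dlk1 and Meg3. The deposited tables do not divide reads by parental allele, so each level given here is a sum over both alleles.

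Levels are given as deposited TPM, a measure scaled by transcript length and by library that allows genes to be compared within a library. Each gene was read from 2 deposited quantifications of the same libraries, a table in the format of RSEM, used where no other is named, and a transcript table in the format of kallisto, summed per gene. Genes that reached 1 TPM in each library were called detected. The depth was 34101499 expected reads for replicate 1 and 32543032 for replicate 2, where 3 reads correspond to 0.0880 and 0.0922 CPM. Of the protein-coding genes, 13083 were detected, with a median of 15.02 TPM and a median coefficient of variation of 7.33% between the animals. Markers of excitatory neurons, inhibitory neurons, astrocytes, oligodendrocytes, microglia and endothelium were all detected. So were all 8 striatal markers, with a median of 57.9 TPM, and all 8 meningeal and fibroblast markers. Of the choroid plexus markers 5 of 10 were detected, and of those of thalamus and hypothalamus 7 of 12. Detection of markers therefore does not tell cortex from neighbouring tissue here. Markers of choroid plexus and of thalamus and hypothalamus were higher in replicate 1, with values given beside the results they move with. In bulk tissue, fewer cells of a type and less RNA per cell cannot be told apart.

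All 9 genes were detected, and 7 of them lay above the median of detected protein-coding genes. Their levels spanned a factor of 181 from Snurf to Dlk1, and of 62.1 from Snrpn to Dlk1 when Snurf was left aside. The median of the 9 genes was 80.8 TPM, at 74.05 in replicate 1 and 87.6 in replicate 2 in the RSEM format, and 50.03 TPM in the kallisto format. In descending order they were Snurf, Snrpn, Impact, Nnat, Peg3, Ndn, Grb10, Plagl1 and Dlk1. Each neighbour in this order was separated from the next by more than the spread between the animals, except Plagl1 and Dlk1, whose ratio was 1.01 in replicate 1 and 1.14 in replicate 2.

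**Figure D1:**
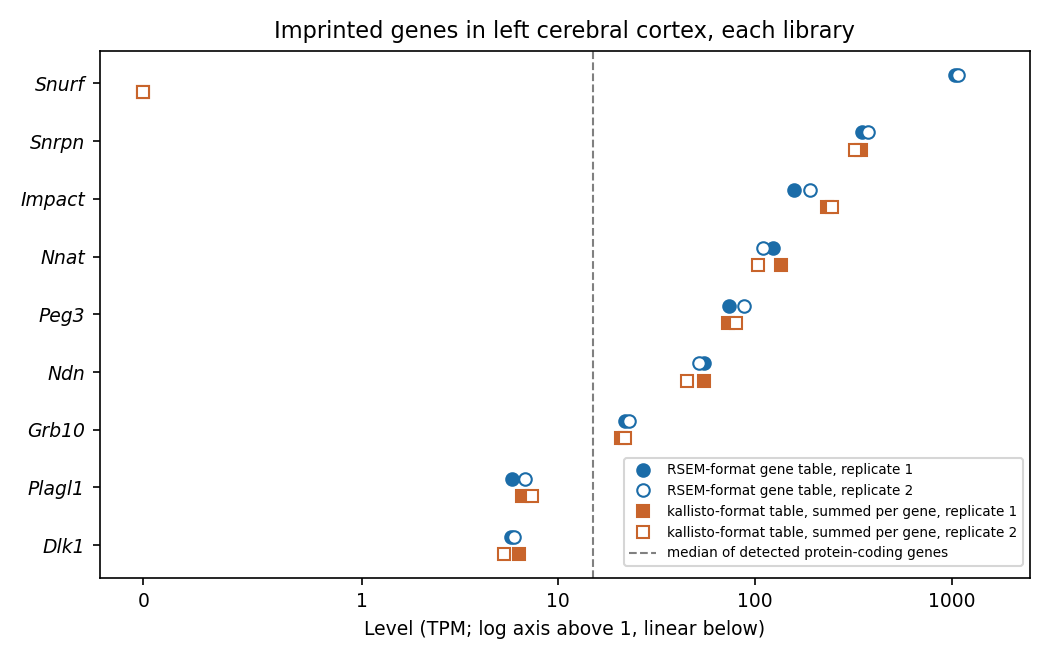
Level of each gene in TPM in each library (log axis above 1, linear below), in the RSEM-format table (circles) and the kallisto-format table (squares), with the median of detected protein-coding genes as a dashed line. For 8 genes the quantifications lie close together, while Snurf stands at 1059 TPM in one and at 0 in the other.

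Snurf and Snrpn come from 1 locus on chromosome 7, and the split of reads between them depended on the quantification. Snrpn encodes SmN, a core protein of spliceosomal small nuclear ribonucleoproteins that replaces SmB in neurons. Snurf encodes a small protein whose reading frame lies upstream of that of SmN in the same messenger RNA. Snrpn (ENSMUSG00000102252.5) lies at chr7:59982495-60140219 of mm10 and Snurf (ENSMUSG00000102627.1) at chr7:59995449-60005049, both on the minus strand, so that the annotated interval of Snurf lies wholly within that of Snrpn. Its only annotated transcript, Snurf-201, has 216 bases in 3 exons, of 14, 96 and 106 bases, and consists of the reading frame alone, 71 codons and a stop. It is shown because every one of its bases is also part of Snrpn-201. The capitals mark the 10 leading bases, which Snrpn-202 lacks.
Snurf-201: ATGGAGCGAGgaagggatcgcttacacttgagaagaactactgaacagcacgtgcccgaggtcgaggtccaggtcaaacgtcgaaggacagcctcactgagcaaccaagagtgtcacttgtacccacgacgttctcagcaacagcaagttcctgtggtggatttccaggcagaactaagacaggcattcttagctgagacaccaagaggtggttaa
Of the 116 windows of 101 bases in this sequence, 116 occur in Snrpn-201 and 116 in Gm38393-201, a transcript of an overlapping gene that begins at the same first exon. In Snrpn-202, 106 of them occur. Among all windows of Snrpn, 341 of 2055 (16.6%) are shared with Snurf or Gm38393, while the other 7 genes share 0 windows with any other gene. No window of this length therefore belongs to Snurf alone.

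The expected counts of Snurf were 3027 in replicate 1 and 2775 in replicate 2, and those of Snrpn 16083 and 15402. Per length, the order turned around. Snurf stood at 1045 and 1073 TPM, a mean of 1059 ± 19.7 (SD, n = 2), and Snrpn at 350.4 and 376 TPM, a mean of 363 ± 18.0. The effective length in the deposited table was 116 bases for Snurf and 1838 bases for Snrpn. Snurf thus had 0.188 and 0.180 times the reads of Snrpn but 2.98 and 2.85 times its TPM. By mean TPM, Snurf ranked 21 and Snrpn 110 among the 13083 detected protein-coding genes.

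In the kallisto-format table Snurf was listed at 0 in both libraries, and Snrpn took 17949 and 17632 estimated reads, or 348 and 321 TPM. Snrpn therefore held 25.1% and 25.9% of the summed TPM of Snurf and Snrpn in the RSEM format, 84.2% and 84.7% of their summed expected counts, and 100% of both in the kallisto format. Of the 12 detected protein-coding genes that the kallisto format listed at 0 in both libraries, Snurf had the highest RSEM-format level. Over all detected protein-coding genes, 96.9% lay within 1.5-fold between the quantifications, and so did 8 of these 9 genes.

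In reads, the sum over the locus differed far less than its split. Gm38393, whose interval chr7:59974149-60005064 runs past the 3′ end of Snrpn, took 1702 and 1883 reads in the RSEM format and 2368 and 2539 in the kallisto format. Snrpn, Snurf and Gm38393 together held 20812 and 20059 reads in the RSEM format and 20318 and 20171 in the kallisto format. In TPM their summed mean level was 1448 in the RSEM format and 392 in the kallisto format. The annotated transcripts within Gm38393 also changed places. Gm38393-203 led in the RSEM format, at 67.1% and 70.9% of the gene, and Gm38393-202 in the kallisto format, at 59.1% and 44.5%.

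**Figure D2:**
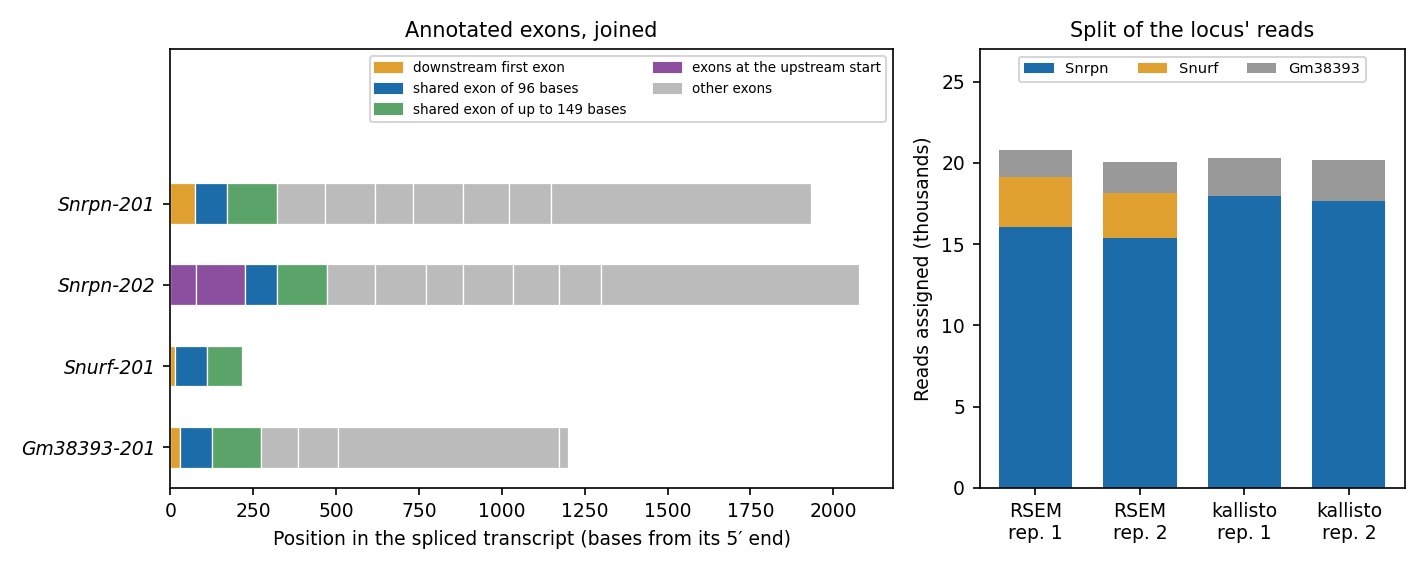
Left, the annotated exons of 4 transcripts joined in order and drawn to scale in bases from the 5′ end, with exons that Snurf-201 shares in the same colours; right, reads assigned to each gene in each library and quantification. The bars reach nearly the same height, but the Snurf segment of 3027 and 2775 reads is present only in the RSEM format.

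The quantifications also placed Snrpn at different start sites. Snrpn-201 starts at position 60005111, next to Snurf, and has 1932 bases in 10 exons. Snrpn-202 starts far upstream at position 60140219 and has 2076 bases in 11 exons. Both encode the same number of codons, 240, and they differ only at the 5′ end and slightly at the 3′ end, with 79 of 1832 windows of Snrpn-201 and 223 of 1976 of Snrpn-202 absent from the other. In the RSEM format Snrpn-201 took 95.8% of the gene in each library. In the kallisto format Snrpn-202 took 100% in replicate 1 and 99.8% in replicate 2, and Snrpn-201 was listed at 0 in replicate 1 and at 0.779 TPM in replicate 2. The libraries agree within each quantification, and the quantifications give opposite answers.

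The promoter windows nearest these starts are shown since the start in use is what the quantifications disagree on. They are RefSeq windows on GRCm38.p6, from 250 bases before the RefSeq start to 50 after it, read on the minus strand at chr7:60140176-60140475 and chr7:60005150-60005449. The RefSeq starts lie 6 bases upstream of the start of Snrpn-202 and 88 bases upstream of that of Snrpn-201. The downstream window thus ends before the Snrpn-201 start and does not contain it. Capitals mark CG dinucleotides, the target of DNA methylation in mammals.
Snrpn-202 start: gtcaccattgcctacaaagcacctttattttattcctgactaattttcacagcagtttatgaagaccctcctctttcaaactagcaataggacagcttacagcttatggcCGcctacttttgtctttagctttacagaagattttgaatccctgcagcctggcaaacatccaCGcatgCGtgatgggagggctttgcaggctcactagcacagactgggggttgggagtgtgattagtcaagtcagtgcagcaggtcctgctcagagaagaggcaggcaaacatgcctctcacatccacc
Snrpn-201 start: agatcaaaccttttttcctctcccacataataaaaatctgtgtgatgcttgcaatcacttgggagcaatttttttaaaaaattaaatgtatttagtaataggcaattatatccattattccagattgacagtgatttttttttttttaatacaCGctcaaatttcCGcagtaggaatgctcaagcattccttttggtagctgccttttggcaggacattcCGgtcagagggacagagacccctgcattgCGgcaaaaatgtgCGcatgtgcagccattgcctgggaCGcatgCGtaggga
The upstream window holds 3 CG and the downstream window 7, where the median over 32817 promoter windows of this length was 7, with quartiles of 3 and 20. A further RefSeq window of Snrpn, chr7:60047929-60048228, lies between them and holds 4 CG. Its RefSeq start lies 42867 bases upstream of the Snrpn-201 start, the nearest annotated start downstream of it. RefSeq windows were found for 8 of the 9 genes, 10 distinct windows in all. The upstream Grb10 window was the richest of them, with 45 CG, at percentile 98.3 of all windows. Plagl1 held 26 CG, Nnat 17, Peg3 13, Ndn 11, Dlk1 9 and the downstream Grb10 window 9. The hexamer TGCCGC, which in its methylated form is bound by the imprint-protecting factor ZFP57, was searched on both strands, and it contains a CG itself. It occurred in the windows of Nnat and Plagl1, the upstream window of Grb10 and the downstream window of Snrpn, and in 11.6% of all windows. AAGATGGC, a core motif of the factor YY1, occurred in 0 of the 10 windows on either strand and in 2.74% of all windows. These matches describe letters in the windows and no binding.

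Peg3 and Plagl1 encode zinc finger proteins that bind DNA, Peg3 a long one known for effects on maternal behaviour and growth, and Plagl1, also called Zac1, a regulator of cell cycle arrest and of other imprinted genes. Peg3 (ENSMUSG00000002265.16, chr7:6703892-6730431, minus strand) had 13733 reads in replicate 1 and 14529 in replicate 2. Its level was 74.05 and 87.6 TPM, a mean of 80.8 ± 9.57 (SD, n = 2), at rank 1136 of the detected protein-coding genes. The kallisto format gave a mean of 76.6 TPM, within the spread between the animals. Peg3-201, which encodes 1571 codons over 9 exons, led in both quantifications, at 77.2% and 76.4% of the gene in the RSEM format and 78.7% and 72.1% in the kallisto format. The rest went to transcripts annotated with a retained intron or as targets of nonsense-mediated decay. The retained-intron transcript Peg3-204 took 10.7% and 14.3%.

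Plagl1 (ENSMUSG00000019817.18, chr10:13060504-13131694, plus strand) was among the 2 lowest of the 9 genes. It had 418 and 478 reads and stood at 5.81 and 6.79 TPM, a mean of 6.30 ± 0.693 (SD, n = 2), at rank 9775. Of its 25 annotated transcripts, 11 were at 0 in both libraries of the RSEM format and of the kallisto format, and 6 had reads in only 1 library of the RSEM format. Plagl1-202, with 704 codons, led in all 4 tables, at 43.7% and 56.4% in the RSEM format and 42.3% and 51.0% in the kallisto format. At this depth the minor transcripts rest on few reads. Plagl1-220 took 20.9% of the gene in replicate 1 on 8 reads and was at 0 in replicate 2.

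Ndn and Nnat are genes of differentiated neurons. Ndn encodes necdin, a protein of the MAGE family that holds back cell division and favours neuronal survival, and lies in the same chromosome 7 domain as Snrpn. Ndn (ENSMUSG00000033585.5, chr7:62346569-62350262, plus strand) has 1 exon and 1 transcript of 325 codons, so there is no split between transcripts. It had 4960 and 4182 reads in replicates 1 and 2, and stood at 55.3 and 52.2 TPM, a mean of 53.7 ± 2.18 (SD, n = 2), at rank 1879. The kallisto format gave 54.8 and 45.2 TPM. Replicate 1 was the higher library in both quantifications. The lincRNA gene Gm32061, annotated across Ndn on the other strand, stood at 0.005 TPM.

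Nnat encodes neuronatin, a small membrane protein of the endoplasmic reticulum that affects calcium handling. The gene (ENSMUSG00000067786.16, chr2:157560078-157562522, plus strand) lies wholly within Blcap, a gene on the other strand. It had 3292 and 2613 reads, and stood at 123 and 110.4 TPM, a mean of 117 ± 8.96 (SD, n = 2), at rank 668. The kallisto format gave 136 and 104 TPM, again higher in replicate 1. Blcap stood at 49.8 ± 2.18 TPM, and whether strand was used in counting is not given in the sources used here, so reads of the overlapping stretch may not be told apart.

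The 2 main messenger RNAs of Nnat differ by an internal exon of 81 bases at chr2:157561213-157561293. Nnat-202 holds it and encodes 81 codons, the alpha form of the protein, and Nnat-205 skips it and encodes 54 codons, the beta form. The exon is shown in capitals with 15 coding bases of each neighbouring exon, followed by the junction that skipping makes.
Nnat exon 2: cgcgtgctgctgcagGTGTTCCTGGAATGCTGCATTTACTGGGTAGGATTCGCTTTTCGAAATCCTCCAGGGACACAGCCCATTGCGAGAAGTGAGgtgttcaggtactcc
Nnat junction: cgcgtgctgctgcaggtgttcaggtactcc
In the RSEM format Nnat-202 led, at 64.1% of the gene in replicate 1 and 52.9% in replicate 2, with Nnat-205 at 29.3% and 38.5%. In the kallisto format Nnat-205 led, at 49.3% and 47.6%, with Nnat-202 at 42.2% and 41.8%. Both forms were present in both animals, and which was the more abundant depended on the quantification. Together these transcripts held 93.3% and 91.3% of Nnat in the RSEM format.

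Impact, Grb10 and Dlk1 act in signalling. Impact encodes an inhibitor of GCN2, the kinase that slows translation when amino acids are short, and is known to be abundant in neurons. Impact (ENSMUSG00000024423.6, chr18:12955852-12992950, plus strand) had 9017 reads in replicate 1 and 8984 in replicate 2. It stood at 158 and 192 TPM, a mean of 175 ± 23.8 (SD, n = 2), at rank 377. Among the 9 genes it had the largest coefficient of variation in TPM, 13.6%, although its reads hardly differed. Its effective length, by which TPM is scaled, was 2284 bases in replicate 1 and 2102 in replicate 2. The kallisto format gave 232 and 248 TPM, 1.37 times the RSEM-format mean. Impact-201, the transcript of the full 318 codons, led in all 4 tables, at 55.9% and 50.1% in the RSEM format and 37.0% and 32.6% in the kallisto format. The short transcript Impact-206, with 129 annotated codons, took 8.31% and 14.9% in the RSEM format and 21.1% and 30.2% in the kallisto format. Retained-intron transcripts took 10.8% and 15.1% in the RSEM format, and 15.4% and 19.1% in the kallisto format, so that replicate 2 was the higher in both quantifications.

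Grb10 encodes an adaptor protein that binds the insulin and insulin-like growth factor receptors and dampens their signal. The gene (ENSMUSG00000020176.17, chr11:11930508-12038683, minus strand) had 1797 reads in replicate 1 and 1783 in replicate 2. It stood at 21.7 and 22.9 TPM, a mean of 22.3 ± 0.820 (SD, n = 2), at rank 4833. The libraries lay close, with a coefficient of variation of 3.67%. Grb10-201, with 596 codons and a start at position 12037401, led in all 4 tables, at 37.2% and 49.1% in the RSEM format and 39.0% and 47.0% in the kallisto format. Grb10-203, with 541 codons and a start at position 12027971, was next among transcripts with a complete annotated reading frame, at 25.9% and 16.8% in the RSEM format, and 26.0% and 11.6% in the kallisto format. In each quantification, the upstream form was the higher in replicate 2 and the downstream form the higher in replicate 1. The CG-rich promoter window described above is that of the upstream start.

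Dlk1 encodes a membrane protein with epidermal growth factor-like repeats that acts as a non-canonical Notch ligand, and alternative splicing is known to give forms with and without the site at which it is shed. Dlk1 (ENSMUSG00000040856.17, chr12:109452823-109463336, plus strand) had 458 reads in replicate 1 and 372 in replicate 2. It stood at 5.74 and 5.95 TPM, a mean of 5.845 ± 0.148 (SD, n = 2), the lowest of the 9 genes, at rank 10009. The kallisto format gave 6.32 and 5.30 TPM. Dlk1-208, with 310 codons, led in all 4 tables, at 36.8% and 44.3% in the RSEM format and 37.9% and 45.5% in the kallisto format. The transcripts of the longest reading frame, 385 codons, took 33.7% and 35.9% in the RSEM format, and 36.5% and 34.2% in the kallisto format. Dlk1-206, with 334 codons, took 14.03% in replicate 1 on 80.6 expected reads and was at 0 in replicate 2.

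**Figure D3:**
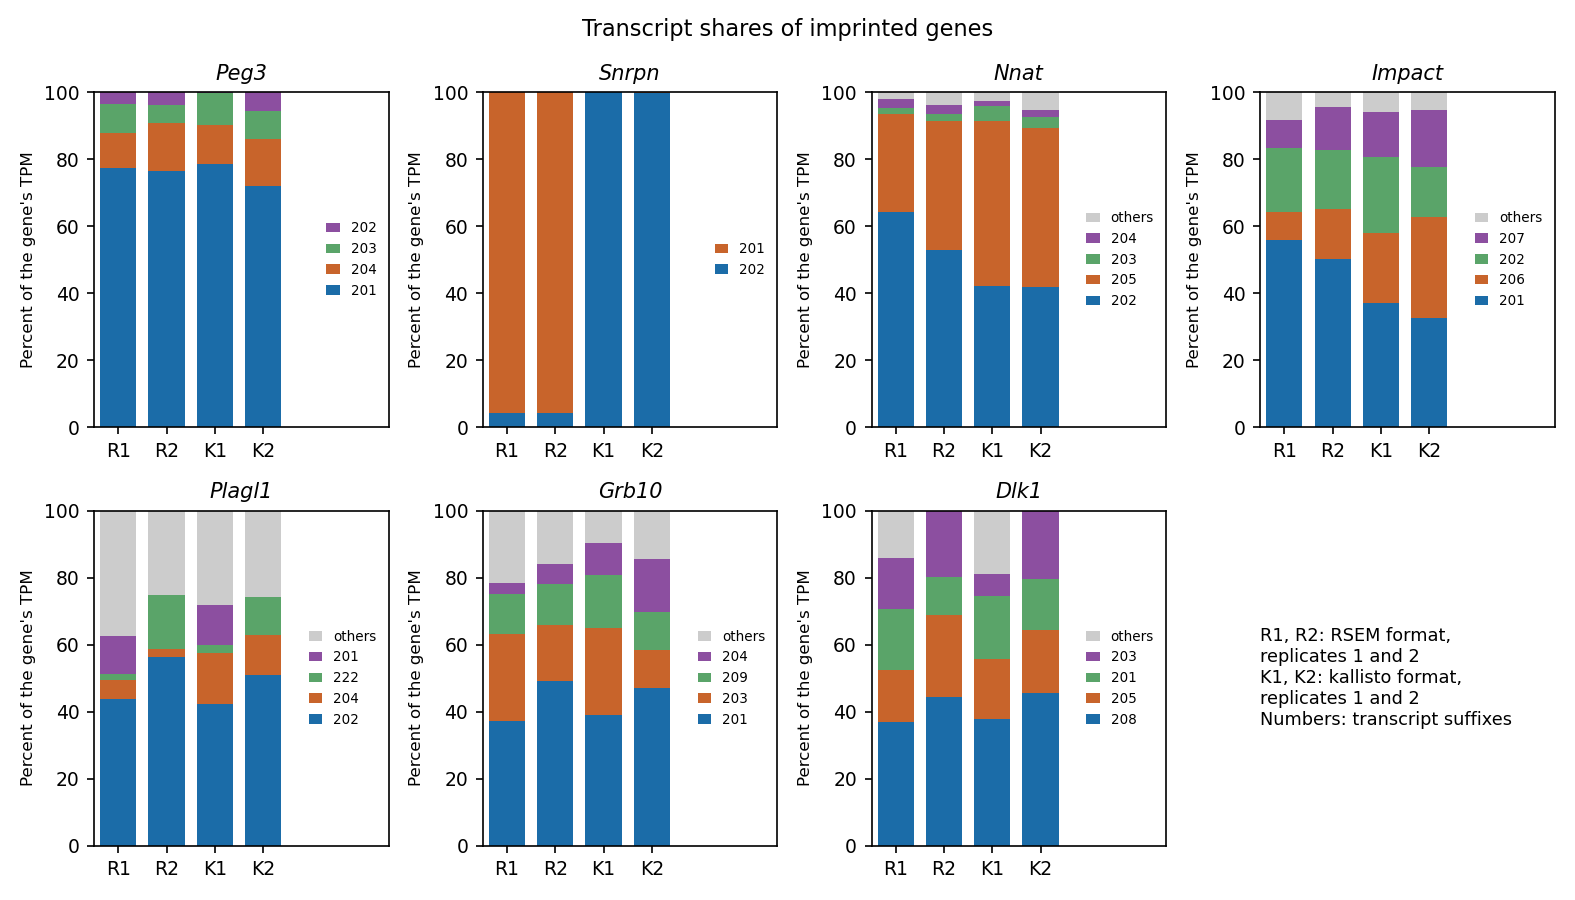
Share of each annotated transcript in its gene's TPM, in percent, in the RSEM format (R1, R2) and the kallisto format (K1, K2) of each library; numbers are the transcripts' suffixes and grey bars hold the remaining transcripts. Snrpn changes completely between the quantifications, Nnat changes its leading transcript, and Peg3, Impact, Plagl1, Grb10 and Dlk1 keep theirs.

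Across the 9 genes, the leading transcript was the same in both libraries of the RSEM format for 9 and the same in all 4 tables for 6. The exceptions were Snrpn, Nnat and Snurf, the last because the kallisto format listed it at 0.

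The 9 genes were also compared between the animals. The difference is given as the log2 ratio of replicate 2 over replicate 1, from expected counts rounded to whole numbers and scaled by the trimmed mean of M values (TMM). It carries a 95% Clopper-Pearson interval. Such intervals cover counting error only, as there is 1 animal on each side. They leave out uncertainty in how shared reads are assigned, as between Snurf and Snrpn. Counting error itself may be larger, because the reads had no molecular identifiers and need not be independent molecules. The rule for a difference asked for a ratio of 2-fold or more, 10 or more reads in 1 of the libraries, and a wider Clopper-Pearson interval, with an error rate of 0.1%, that excluded equal levels. Of the 9 genes 0 met it, where 1.22% of the 19484 genes with enough reads did, 0.647% being higher in replicate 1 and 0.57% in replicate 2. In the kallisto format Snurf had 0 reads and could not meet it, and 0 of the other 8 did, against 1.35% of the genes with enough reads. A count of 0 among so few genes is near these shares. The ratios ran from -0.30 to 0.23 with a median of -0.028, beside a median of -0.001 over all genes. Taken without sign, the median over all genes was 0.126. The ratios of Nnat, Ndn, Plagl1 and Dlk1 were larger than that in size, and those of the other genes smaller.

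For Nnat, Ndn and Peg3 the wider interval, with its error rate of 0.1%, excluded equal levels whatever the fold. Nnat was higher in replicate 1, with a log2 ratio of -0.30 (95% interval -0.37 to -0.22). Ndn was also higher in replicate 1, with -0.21 (-0.27 to -0.15). Peg3 was higher in replicate 2, with 0.12 (0.08 to 0.15). All of these are differences of under 1.5-fold between single animals. Such intervals were found for 8.76% of all genes tested, and for 12.7% of the 10789 genes with at least 500 reads over both libraries, as all 9 genes have. Higher in replicate 1 were 4.51% of all genes tested and higher in replicate 2 were 4.25%. The interval narrows with more reads. Nnat, Ndn and Peg3 each had far more than 500, so these shares are not matched to their depth.

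For the remaining 6 genes the wider interval included equal levels. Dlk1 and Plagl1, the genes with the fewest reads, had the widest intervals. Dlk1 stood at -0.27 (-0.47 to -0.07) and Plagl1 at 0.23 (0.04 to 0.42). Snurf stood at -0.091 (-0.17 to -0.016), Snrpn at -0.028 (-0.06 to 0.004), Grb10 at 0.023 (-0.07 to 0.12) and Impact at 0.029 (-0.013 to 0.07). The interval of Snrpn, the gene with the most reads, was the narrowest.

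The direction of a difference depended on the scale for 3 genes. On the scale of RSEM-format TPM, 7 of the 9 genes were higher in replicate 2, while on the scale of TMM-scaled reads 4 were. The TPM of all genes tested moved in the same way, with a median log2 TPM ratio of 0.13 and 72.2% of genes higher in replicate 2. Small structural RNAs and mitochondrial transcripts took 50.9% of the TPM in replicate 1 and 47.5% in replicate 2. Snurf, Snrpn and Dlk1 changed sign between the scales, to 0.038, 0.10 and 0.052 by RSEM-format TPM. In kallisto-format TPM, Snrpn, at 348 and 321, and Dlk1, at 6.32 and 5.30, stayed higher in replicate 1, and Snurf was at 0. The RSEM-format TPM were also rescaled without spike-ins, mitochondrial and small structural RNAs. Snurf, at 2168 and 2079, and Dlk1, at 11.9 and 11.5, were then higher in replicate 1, while Snrpn, at 727 and 728, was not. Nnat and Ndn stayed higher in replicate 1 on both scales, and Peg3, Plagl1, Impact and Grb10 higher in replicate 2, though Grb10 stood at -0.025 in the kallisto format. With total counts in place of TMM, Snrpn stood at 0.005. Beside this shift of 0.13 over all genes, the TPM ratio of Peg3 was 0.24 and that of Impact 0.28. Their ratios of TMM-scaled reads were 0.12 and 0.029.

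Markers of other tissue moved with the animals as well. All 10 choroid plexus markers were higher in replicate 1, each with at least 2-fold more reads, and their summed level was 563 TPM in replicate 1 and 109.9 in replicate 2, with 0 of the 10 at 0. Of the 11 markers of thalamus and hypothalamus with enough reads, 10 were higher in replicate 1, and the summed level of the list was 84.2 and 59.5 TPM. All 7 astrocyte, 6 oligodendrocyte and 6 microglia markers were higher in replicate 1 by reads, with median log2 ratios of -0.14, -0.12 and -0.15. Of the inhibitory neuron markers 7 of 8 were higher in replicate 1 (median -0.07), as were 6 of 8 meningeal and fibroblast markers (-0.15) and 3 of 5 endothelial markers (-0.22), while 5 of 7 excitatory neuron markers were higher in replicate 2 (0.04). All 8 striatal markers were higher in replicate 2, with a median of 0.062. The part of these differences in the ratios of Nnat, Ndn and Peg3 was not tested.

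**Figure D4:**
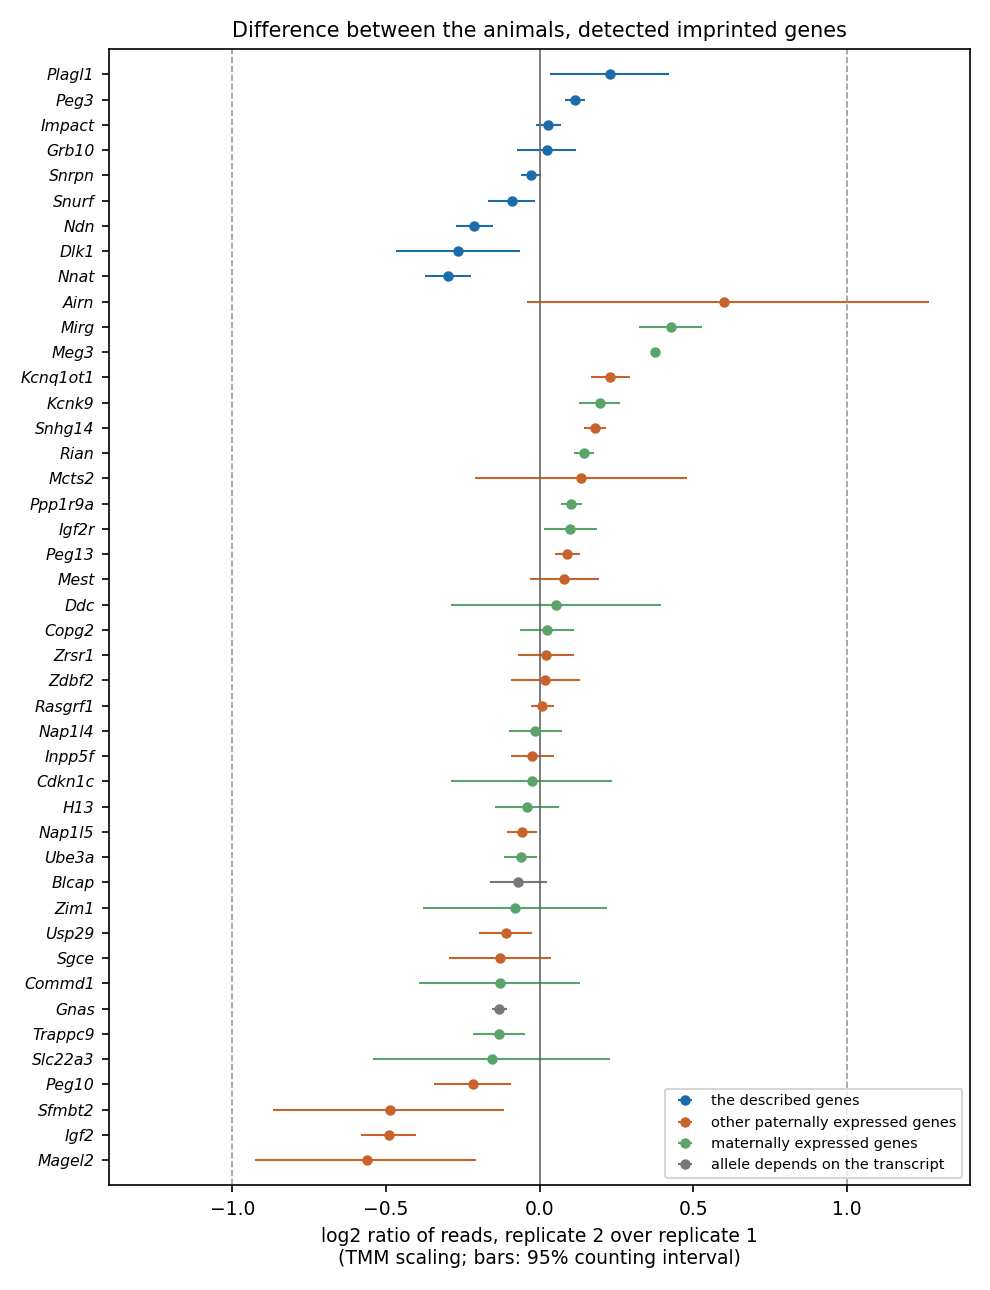
Log2 ratio of reads, replicate 2 over replicate 1, with 95% counting intervals, for the 9 genes (top, blue) and the other detected imprinted genes; dashed lines mark a 2-fold difference. The 9 genes lie between -0.30 and 0.23, and no imprinted gene shown passes the 2-fold lines.

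The neighbours of the 9 genes in their domains ranged from absent to far more abundant. Of 23 neighbours matched, 15 were detected. In the Peg3 domain, Usp29, which encodes a deubiquitinating enzyme and whose annotated start lies 0.147 kb from that of Peg3 on the other strand, stood at 19.7 ± 0.368 TPM (SD, n = 2). Zim1 stood at 2.995 TPM, and Zim3, annotated as an antisense gene, and Zfp264, annotated as a transcribed pseudogene, were not detected, at 0.04 and 0.08 TPM. Peg3 was thus 3.81 and 4.39 times as abundant as Usp29 in the 2 libraries.

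In the Snrpn and Ndn domain, the long noncoding gene Snhg14, host of small nucleolar RNAs and antisense to Ube3a, stood at 524 and 649 TPM. This was 1.496 and 1.73 times the level of Snrpn in the RSEM format. The gap was wider in the kallisto format, with Snhg14 at 1004 and 1047 TPM and Snrpn at 348 and 321. Ube3a, the ubiquitin ligase gene of Angelman syndrome and maternally expressed in neurons, stood at 51.9 ± 3.42 TPM. Snrpn was 6.45 and 7.60 times as abundant. The intronless genes Magel2, Mkrn3 and Peg12, paternally expressed like Ndn, stood at 1.27, 0.165 and 0.190 TPM, so that of the 4 intronless genes Ndn was the only abundant one in both libraries. Atp10a stood at 3.28 TPM.

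In the Dlk1 domain the maternally expressed noncoding genes were far above the coding gene. Meg3 stood at 819.6 and 1102 TPM, Rian at 408 and 496 and Mirg at 36.2 and 48.95. Meg3 was 143 and 185 times as abundant as Dlk1. The paternally expressed coding genes Rtl1 and Dio3 were not detected, at 0.230 and 0.770 TPM, and the antisense gene Dio3os stood at 0.305. Meg3, Rian and Mirg had log2 ratios of 0.38, 0.14 and 0.43, with wider intervals that excluded equal levels, and Dlk1 had -0.27. Begain, which encodes a postsynaptic protein, stood at 53.6 TPM.

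The remaining neighbours ranged from 0 to 115 TPM. Cobl, next to Grb10, stood at 33.2 TPM and Ddc, the decarboxylase gene of dopamine and serotonin synthesis, at 3.755. Phactr2, beside Plagl1, stood at 11.2 TPM. Osbpl1a, on the other strand beside Impact, stood at 115 TPM, and Hrh4, a histamine receptor gene, was listed at 0. Of the 23 neighbours 19 had enough reads for the 2-fold rule and 0 met it, where 1.22% of all genes tested did.

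Set beside other imprinted genes, the 9 genes stood high. Of 52 further imprinted genes, 35 were detected, with a median of 7.2 TPM, and 34 were detected in the kallisto format. In the kallisto format the medians were 50.03 TPM for the 9 genes and 7.31 TPM for the 52. The parental labels of the lists are background not limited to cortex, and the allele in use was not read here. Of 23 further genes listed as paternally expressed 17 were detected, with a median of 6.91 TPM. The 5 highest were Snhg14 at 586 ± 88.0 TPM (SD, n = 2), Nap1l5 at 159 ± 6.58, Rasgrf1 at 123 ± 7.0, the noncoding Peg13 at 88.0 ± 9.46 and Inpp5f at 44.5 ± 2.58. Of 27 genes listed as maternally expressed 16 were detected, with a median of 3.755 TPM. The highest were Meg3 at 961 ± 199.7, Rian at 452 ± 62.1, Ppp1r9a at 87.8 ± 9.36, Ube3a at 51.9 ± 3.42 and Nap1l4 at 49.5 ± 5.93. Phlda2, a placental growth gene, was listed at 0. Gnas and Blcap, whose expressed allele depends on the transcript, stood at 778 ± 12.4 and 49.8 ± 2.18 TPM. The members of these lists were chosen with results of these data known, so the gap between the medians is a description of the chosen genes.

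**Figure D5:**
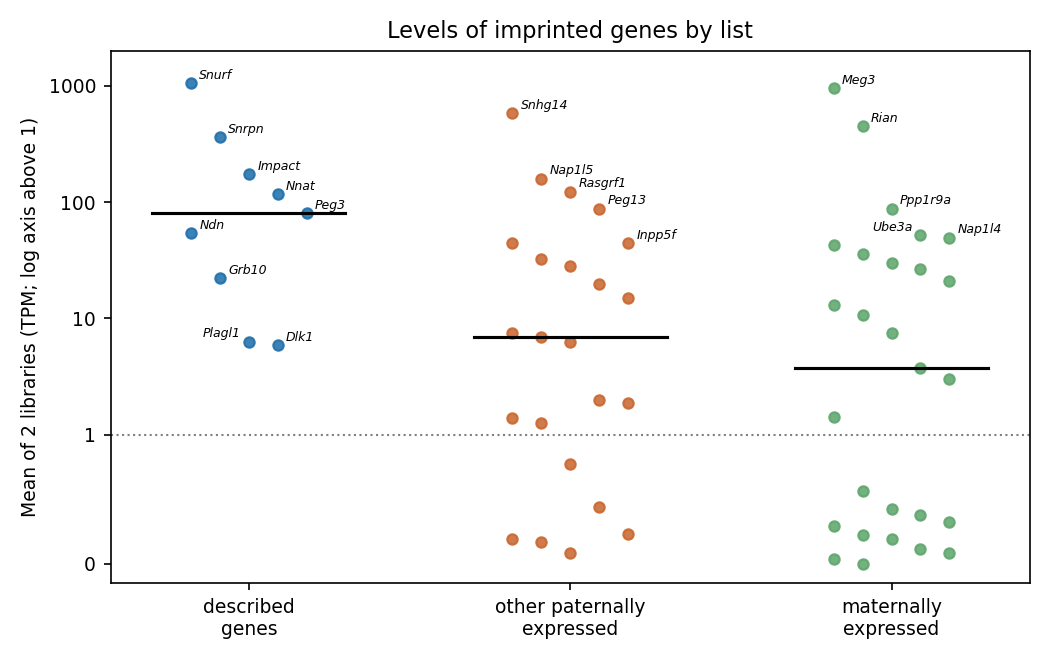
Mean RSEM-format TPM of 2 libraries per gene (log axis above 1, linear below) for the 9 genes and other imprinted genes. The others are 23 listed as paternally expressed and 27 listed as maternally expressed. Black lines mark medians of 80.8, 6.91 and 3.755 TPM and the dotted line the detection level. The 9 genes all lie above the dotted line, while the other lists reach down to 0.08 and 0 TPM.

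Of the 52 further imprinted genes 47 had enough reads for the 2-fold rule and 0 met it in either direction, where 1.22% of all genes tested did. The wider interval excluded equal levels for 3 that were higher in replicate 1 and 8 that were higher in replicate 2, beside 4.51% and 4.25% of all genes tested and 12.7% in either direction of those with at least 500 reads. The 3 higher in replicate 1, by log2 ratio, were Igf2 at -0.49, Peg10 at -0.22 and Gnas at -0.13. Igf2 also belongs to the list of meningeal and fibroblast markers compared above. The 8 higher in replicate 2 were Mirg at 0.43, Meg3 at 0.38, Kcnq1ot1 at 0.23, Kcnk9 at 0.20, Snhg14 at 0.18, Rian at 0.14, Ppp1r9a at 0.10 and Peg13 at 0.091. Igf2, Peg10, Kcnq1ot1 and Kcnk9 were named after their values were seen. Differences in both directions thus occurred among these genes, as among Nnat, Ndn and Peg3.

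Relatives of the 9 genes outside imprinted domains showed which families the imprinted member leads. Snrpb, which encodes SmB and its splice variant, stood at 46.6 ± 3.24 TPM (SD, n = 2), below Snrpn in both libraries. Of the MAGE family, Maged1 stood at 194 ± 10.3 TPM, above Ndn, and Nsmce3 at 4.43 ± 0.509. Plagl2 and Plag1, relatives of Plagl1, stood at 2.565 ± 0.035 and 2.265 ± 0.262 TPM, below it. Grb14 at 11.9 ± 0.375 and Grb7 at 1.655 ± 0.106 TPM lay below Grb10. Dlk2 stood at 20.6 ± 1.23 TPM, above Dlk1. All 8 relatives were detected, and in each of these pairs the difference in level was larger than the spread between the animals.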

How the data were processed

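Total RNA of left cerebral cortex was measured in 2 male mice of 1 group. Per the file headers, the authors deposited for each library a gene and a transcript table in RSEM format, with expected counts, TPM and FPKM. The transcript table also holds the percent each transcript takes of its gene, and both hold an upper and a lower bound of the TPM, a signal on the TPM scale whose interval level the deposited tables do not state. The authors also deposited a transcript table in kallisto format with estimated counts and TPM. Per the labels and a deposited text description, the build was mm10 and the annotation M21. The aligner, the versions of its programs and whether strand was used in counting are not stated there. The deposited TPM sum over all entries, spike-ins included, and each RSEM-format effective length was 100 bases short of the full length.

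Kallisto-format transcripts were summed per gene; that table lacked 86 genes. Expected counts were rounded to whole numbers and scaled with TMM (edgeR 4.0.16 in R 4.3.3) in the ratios of the animals, with 0.5 reads added. DESeq2 1.42.0 size factors were an alternative. The remaining steps ran in Python 3.11.15 with scipy 1.17.1. The ratio script was checked on simulated data. Windows of 101 bases were taken from the annotated transcripts. Depth was 34101499 and 32543032 expected counts, and intervals cover counting error only.

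Named were all 9 genes, any gene of the lists of neighbours and of relatives, and, of the other imprinted lists, the 5 highest by mean TPM and those at 0. The genes, the lists and the tests were chosen with earlier results of these data known. The listed symbols Hymai and Peg3os were not matched and were not used here. Impact has no promoter window among those used here, and protein sequences were not used here.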

Additional observations from a re-analysis of the deposited data

How the results depend on the processing

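The count of detected genes was 9 in either library alone and at detection levels of 0.5 and 5 TPM, and 8 in the kallisto format, which lists Snurf at 0. The median level of the 9 genes was 80.8 TPM as reported, 50.03 in the kallisto format and 67.3 with Snurf and Snrpn summed as 1 locus, and ran from 74.05 to 87.59 when either replicate was left out. The share of Snrpn in the summed level of Snurf and Snrpn was 25.5% as reported, 100% in the kallisto format and 84.4% by expected counts, and ran from 25.1% to 25.9% when either replicate was left out. Of the 9 genes 0 met the 2-fold rule under every alternative run for it: DESeq2 size factors, total counts, the kallisto format, a fold of 1.5 and 5 added reads. In the kallisto format Snurf, listed at 0, could not meet it. Over all genes, 237 met the rule as reported and 110 with a minimum of 50 reads. Rescaling the TPM without spike-ins, mitochondrial and small structural RNAs, or using FPKM, moved the level of all 9 genes by more than 1 SD, for Snrpn to 728 and 257. The ratio of deposited TPM was added after seeing the data and moved 7 of the 9 ratios past their counting intervals. No paired analysis was possible because the 2 libraries form 1 group. With 1 animal on each side, no difference between the animals has a replicate check, and Plagl1, with 418 and 478 reads, and Dlk1, with 458 and 372, have the fewest reads behind their transcript shares.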

Other observations

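The RSEM-format gene table gives each TPM a lower and an upper bound. For Snrpn, Ndn and Plagl1 the deposited TPM lay outside the gene's own bounds in both libraries, which was so for 3.88% of detected protein-coding genes in replicate 1 and 4.42% in replicate 2. Snrpn, at 350.4 TPM in replicate 1, lay above bounds of 335 and 346. Ndn, at 55.27 TPM, lay just above its upper bound of 55.22. Plagl1, at 5.81 TPM, lay below bounds of 6.85 and 10.4, the widest of the 9 genes relative to its level. These genes were named after their values were seen.

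Factors known to maintain imprints were expressed in this cortex. Of Dnmt1, Uhrf1, Zfp57, Zfp445, Trim28 and Ctcf, 5 of 6 were detected. Trim28, the corepressor that zinc finger proteins recruit to imprinted regions, stood at 91.4 ± 13.5 TPM (SD, n = 2) and Zfp445 at 62.2 ± 12.1. Ctcf, the insulator protein gene, stood at 32.1 ± 4.62 TPM and the maintenance methyltransferase gene Dnmt1 at 16.5 ± 2.18. Zfp57 stood at 4.285 ± 0.460 TPM, and Uhrf1, which guides Dnmt1 to newly copied DNA, was not detected, at 0.605 ± 0.247. All 6 had more TMM-scaled reads in replicate 2, though the 95% intervals of Dnmt1, Uhrf1 and Ctcf included equal levels. Of the 6 genes 0 met the 2-fold rule, where 1.22% of all genes tested did. Zfp445 had a log2 ratio of 0.25 (95% interval 0.18 to 0.31), and the interval with an error rate of 0.1% also excluded equal levels. Such intervals were found for 8.76% of all genes tested and 12.7% of those with at least 500 reads over both libraries. These genes were named after their values were seen.

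In the annotation, the RefSeq start used for the Ndn promoter window differs from the start of Ndn-201 by -1708 bases, Ndn-201 lying upstream, whereas its starts for Nnat, Peg3, Plagl1, Dlk1 and the downstream form of Grb10 fall on the start of an annotated transcript.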
